A study of Mus musculus with 12 samples.

Results

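The genes described here are 10 members of the Nrf2 antioxidant pathway: the gene of the transcription factor Nrf2 itself (Nfe2l2), the gene of its inhibitor (Keap1), and 8 genes commonly used as its targets (Hmox1, Nqo1, Gclc, Gclm, Txnrd1, Srxn1, Slc7a11 and Gsr). They were chosen by name from textbook knowledge of the pathway, by a rule that used no measured value. Earlier results of these data were, however, known when the choice was made. The members are 10 of the 78298 genes in the deposited table. Each had 1 row in the table, and all 10 were among the 18600 genes expressed well enough to test.

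Poly(A) RNA of the hippocampus was sequenced in 12 libraries from male C57BL/6 mice aged 6 to 8 weeks at purchase, 4 libraries in each of 3 groups, all labelled as 1 batch. Control mice received saline and no stress. For 28 days Model mice, also given saline, were exposed to chronic unpredictable mild stress, a rodent procedure of changing daily stressors used to model depression. Treatment mice were stressed likewise and were gavaged once a day for 14 days, from day 15 on, with 20 mg/kg of poricoic acid A, which is a triterpenoid made by Poria cocos, a fungus. Mice of all groups had been selected before the experiment for a sucrose preference above 50%. No unstressed group received the compound, so its action without stress was not measured. The labels give 4 mice per group but do not tie each library to a mouse, so p-values measure the spread between these libraries.

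Nrf2 is a leucine zipper factor that Keap1 holds in the cytoplasm and passes to a ubiquitin ligase for degradation. Oxidants and electrophiles modify cysteines of Keap1, and Nrf2 then escapes, enters the nucleus, pairs with a small Maf protein and binds antioxidant response elements near its target genes. Because this switch works on the protein, the mRNA level of Nfe2l2 is not a measure of Nrf2 activity, and the target genes are the usual readout. In brain, the pathway is best known from astrocytes, which make glutathione and supply its precursors to neurons.

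The core of an antioxidant response element was searched as TGACNNNGC and TGAGNNNGC on both strands in promoters of RefSeq on the build GRCm38.p6, from 250 bases before to 50 after each gene start. The table held 9 promoters of 7 members and none of Hmox1, Gclc or Gsr. Of the 7 members searched, 5 had 7 matches between them. The matches before the start are printed because they are the candidate letters for Nrf2 near these genes; no binding was measured here. Capitals mark the core, and each line reads 5′ to 3′ on the strand given.
Srxn1, chr2:152105464-152105502, + strand, core 45 bases before the start: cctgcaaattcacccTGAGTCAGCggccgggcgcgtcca
Srxn1, chr2:152105351-152105389, − strand, core 158 bases before the start: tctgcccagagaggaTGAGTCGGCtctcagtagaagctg
Slc7a11, chr3:50443687-50443725, + strand, core 97 bases before the start: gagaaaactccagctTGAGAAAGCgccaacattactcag
Gclm, chr3:122245408-122245446, − strand, core 134 bases before the start: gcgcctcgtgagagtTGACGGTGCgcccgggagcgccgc
Txnrd1, chr10:82859099-82859137, − strand, core 92 bases before the start of 1 of its 3 promoters: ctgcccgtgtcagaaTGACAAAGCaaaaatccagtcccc
Nfe2l2, chr2:75704880-75704913, − strand, core 240 bases before a start whose next bases are in no GENCODE vM21 transcript of the gene: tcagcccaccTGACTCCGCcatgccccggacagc

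Srxn1 was the only one of the 7 members searched with several matches, 2 before its start and 1 after it. The promoters of Keap1 and Nqo1 held neither core in this window, and sequence farther from the start was not searched. The letters are common: either core was found in 27.8% of the 32851 promoters in the table, TGACNNNGC in 12.4% and TGAGNNNGC in 17.6%. By gene, either core was found for 30.8% of 27025 genes.

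None of the 10 genes passed the test in any comparison, so no change of the pathway's mRNA was detected between unstressed, stressed and treated hippocampus. In edgeR's quasi-likelihood test with Benjamini-Hochberg adjustment over all 18600 genes, 0 of 10 members had an adjusted p under 0.05 in Model against Control, where 0.79% of all genes did. The count was also 0 of 10 in Treatment against Model, where 1.88% of all genes passed, and 0 of 10 in Treatment against Control, where 0.102% did. At an unadjusted p under 0.05 there were 3, 2 and 2 members in the 3 comparisons, against 15.6%, 18.5% and 13.9% of all genes. DESeq2 also called 0 members in each comparison, against 3.72%, 5.91% and 2.37% of all genes, and so did limma-voom, against 0.473%, 1.71% and 0.0484%.

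For the 8 members at 10 CPM (counts scaled to a common library size) or more, the 95% intervals of all 3 comparisons lay between −0.32 and 0.33 on the log2 scale, with no adjustment for the number of genes. Only Hmox1 and Nqo1, the least abundant members, had wider intervals, which reached from −0.92 to 0.49. No interval of any member included a log2 change of 1 or −1. Across the members, the median log2 fold change was 0.10 in Model against Control (7 positive, 3 negative), −0.03 in Treatment against Model (4 positive, 6 negative) and 0.05 in Treatment against Control (7 positive, 3 negative). Over all tested genes these medians were −0.012, 0.002 and −0.008. The comparisons share groups, so their values are not independent of each other.

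As a second description, the libraries of the groups were checked for overlap in log2 CPM. Model libraries were all above Control for 2 members (Gclm and Slc7a11), against 5.95% of all genes, and all below for 0 members, against 5.46%. Treatment libraries were all below Model for 1 member (Txnrd1), against 4.36% of all genes, and all above for 0, against 5.14%. Treatment libraries were all above Control for 2 members (Gclc and Slc7a11), against 3.99% of all genes, and all below for 0, against 3.24%. With counts of 0 to 2 genes, the members were not shown to differ from this background.

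**Figure D1:**
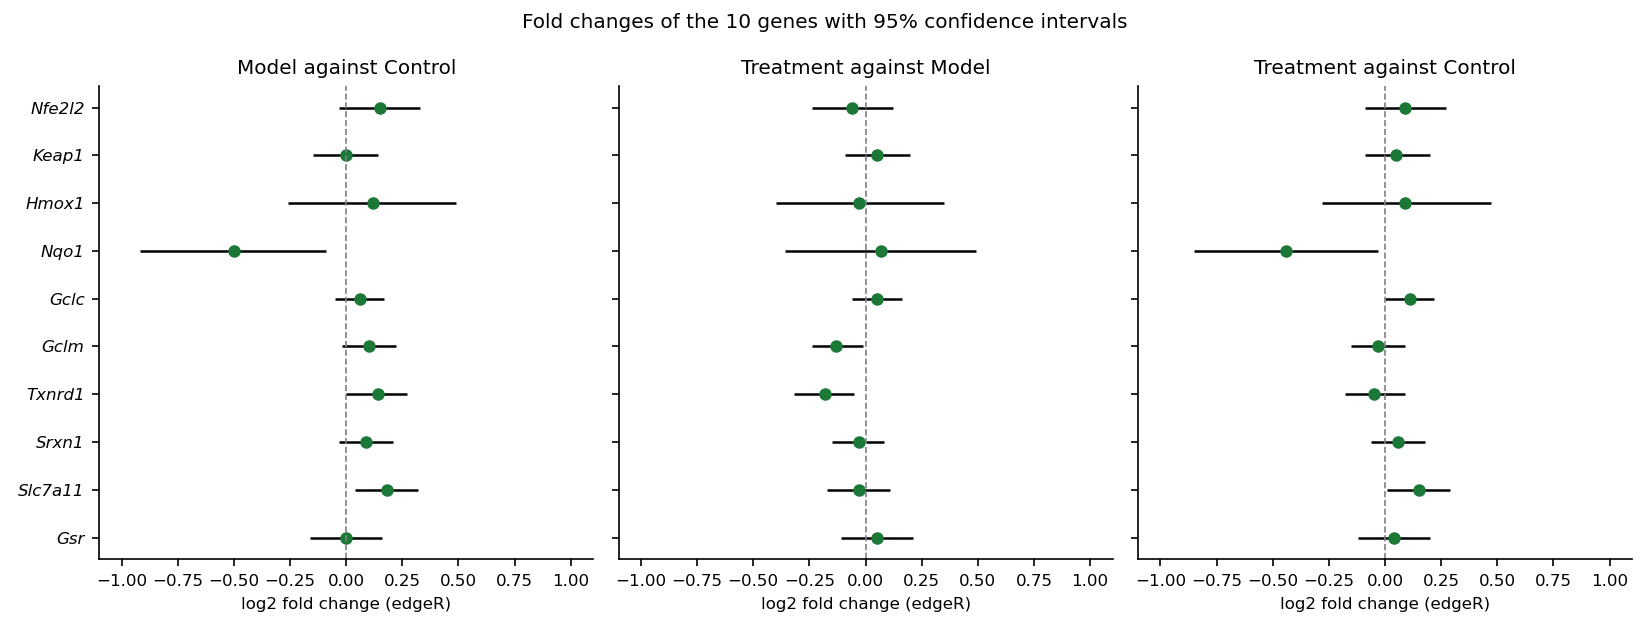
Log2 fold change of each of the 10 genes (points) in the 3 comparisons, with 95% confidence intervals (lines) from edgeR. The intervals of 8 genes stay between −0.32 and 0.33, and those of Hmox1 and Nqo1 are wider.

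Each library held 17083260 to 27479083 counts. All 13 markers listed for hippocampal neurons were detected, which alone does not test the tissue label. Their summed level was 6810 to 7670 CPM in Control, 7390 to 8630 in Model and 6960 to 7340 in Treatment. Every Model library thus stood above every Treatment library. Camk2a made up most of these sums, at a mean of 4430 CPM in Model and 4250 in Treatment. In Treatment against Model 12 of 13 markers had a negative log2 fold change, and 9 of 13 had an unadjusted p under 0.05. In Model against Control 12 of 13 were positive, and 3 had an unadjusted p under 0.05. Of the other marker lists, the summed astrocyte level overlapped between the groups (5420 to 6380 CPM over the 12 libraries), and so did that of microglia (323 to 403 CPM). Endothelial markers summed to 299 to 361 CPM in Treatment and to 254 to 293 CPM in the other groups, and pericyte and smooth muscle markers to 202 to 224 CPM in Treatment and to 171 to 190 CPM in the other groups. Choroid plexus markers, which belong to tissue beside the hippocampus, varied most, from 735 to 2410 CPM in Control, 615 to 891 in Model and 481 to 1490 in Treatment. All 10 oligodendrocyte, 8 ependymal and 5 tested red blood cell markers had a negative log2 fold change in Model against Control. In Model against Control, Opalin, Aspa, Itm2a, Sostdc1 and Hbb-bt were called lower. In Treatment against Model, Prox1 and Calb1 were called lower and Aldh1l1, Pecam1 and Slco1a4 higher, and in Treatment against Control, Aspa was called lower. Among leukocyte markers Ly6g had 0 counts in all libraries. In such bulk tissue, fewer cells of a type and less RNA per cell cannot be told apart.

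By FPKM, which scales for gene length and so lets genes be compared, Gclm and Srxn1 stood highest and Hmox1 and Nqo1 lowest. Over the 12 libraries the mean level ± SD was 34.5 ± 6.91 FPKM for Gclm, 33.3 ± 2.63 for Srxn1, 21.6 ± 1.16 for Keap1, 18.0 ± 1.52 for Txnrd1 and 17.2 ± 0.773 for Gclc. Next came Gsr at 8.71 ± 0.927 FPKM, Nfe2l2 at 8.55 ± 0.735, Slc7a11 at 6.40 ± 0.499, Hmox1 at 3.58 ± 0.621 and Nqo1 at 3.13 ± 0.787. Between neighbours in this order, the ranges over libraries were apart only for Srxn1 and Keap1, Gclc and Gsr, and Slc7a11 and Hmox1. Nfe2l2 was above Slc7a11 in 12 of 12 libraries although their ranges touched. Of the other neighbours, Keap1 was above Txnrd1 in 10 of 12 libraries, Hmox1 above Nqo1 in 9, Txnrd1 above Gclc in 8, Gclm above Srxn1 in 7 and Gsr above Nfe2l2 in 6.

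**Figure D2:**
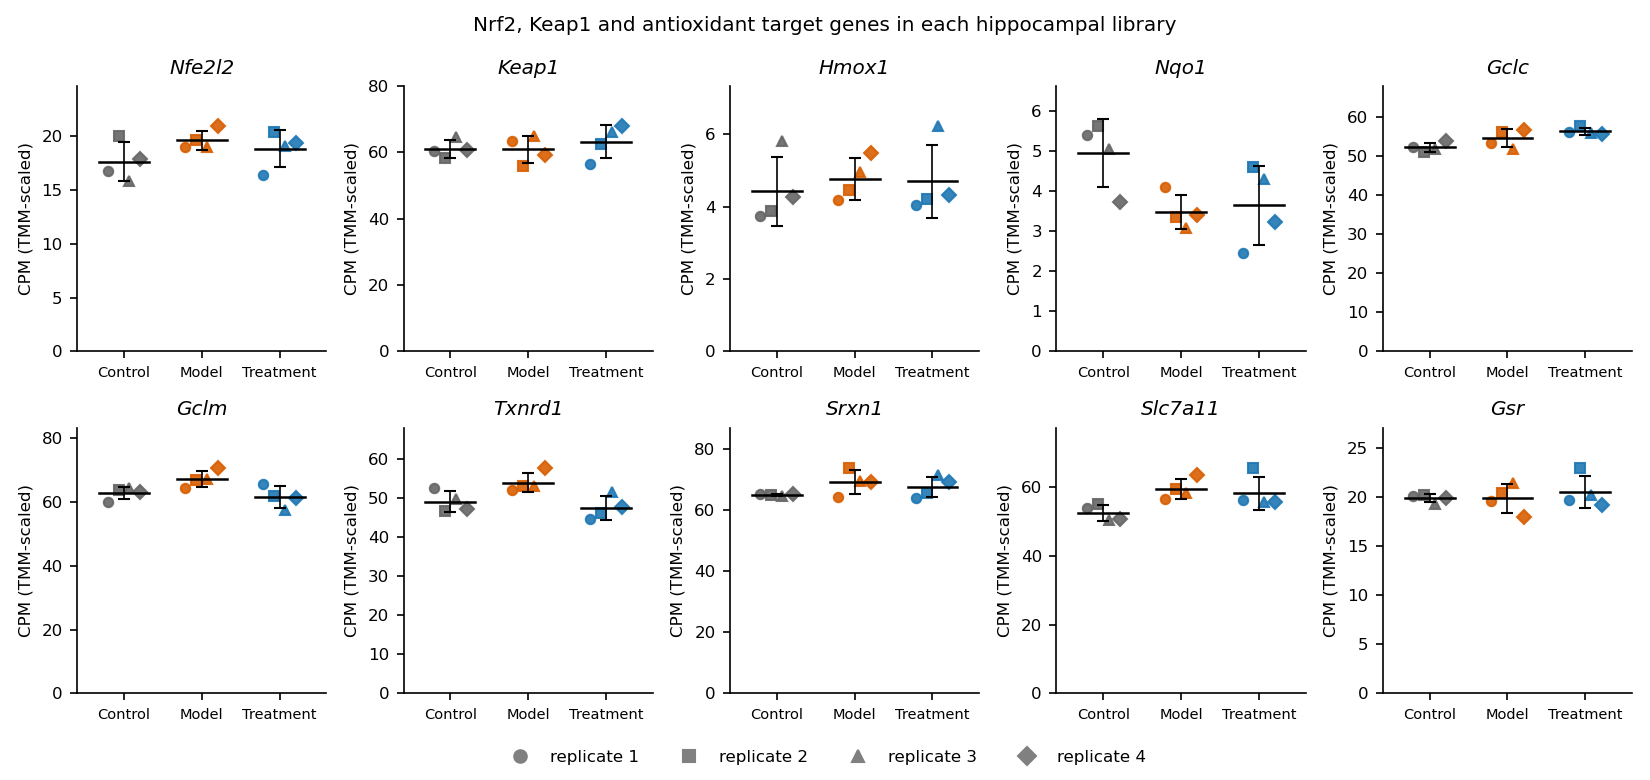
CPM of the 10 genes in every library, by group, with the group mean (line) and SD (bar), n = 4 per group. Groups lie apart in few panels: Slc7a11 in Model and in Treatment sits above Control, Gclc in Treatment sits above Control, Txnrd1 in Treatment sits below Model, and Gclm in Model sits just above Control.

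Of the regulator pair, Nfe2l2 (ENSMUSG00000015839, chr2:75505857-75534985 in the deposited table) encodes Nrf2. Its level in Control replicates 1 to 4 was 16.8, 20.0, 15.8 and 17.9 CPM, in Model 19.0, 19.6, 19.0 and 20.9, and in Treatment 16.4, 20.4, 19.1 and 19.4. Control replicates 1 and 3 and Treatment replicate 1 were the lowest libraries, and all 3 groups overlapped. The mean was 17.6 ± 1.79 CPM (SD, n = 4) in Control and 19.6 ± 0.871 in Model, a log2 fold change of 0.15 ± 0.09 (SE; edgeR adjusted p = 0.436). Treatment, at 18.8 ± 1.71 CPM, differed from Model by −0.06 ± 0.09 on the log2 scale (edgeR adjusted p = 0.779) and from Control by 0.09 ± 0.09 (edgeR adjusted p = 0.704).

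Keap1 (ENSMUSG00000003308, chr9:21141026-21150628), the inhibitor and oxidant sensor, did not differ in any comparison beyond the spread of its libraries. Its libraries read 60.5, 58.3, 64.6 and 60.7 CPM in Control, 63.5, 55.8, 65.0 and 59.2 in Model, and 56.6, 62.4, 66.0 and 67.8 in Treatment. The lowest value was in Model and the highest in Treatment, with each group spanning most of the common range. The log2 fold change was 0.00 ± 0.07 in Model against Control, 0.05 ± 0.07 in Treatment against Model and 0.05 ± 0.07 in Treatment against Control (SE; edgeR adjusted p = 0.994, 0.738 and 0.797). The gene Gm16754 overlaps Keap1 in the table but held only 2.38% as many counts.

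The genes whose expression followed that of Nfe2l2 most closely, among the tested genes considered, were Mgat3, Stox1 and Mon1b. Genes of the fixed lists and genes with clone-like or identifier symbols were left out of this search. Pearson's r of log2 CPM over the 12 libraries was 0.90, 0.88 and 0.86. These are the highest of many values, over libraries that share groups, and are given as a description. Among the members, r with Nfe2l2 was 0.73 for Slc7a11, 0.50 for Srxn1, 0.37 for Gclc, 0.26 for Txnrd1 and 0.18 for Gclm. It was 0.15 for Gsr, 0.03 for Hmox1, 0.01 for Keap1 and −0.02 for Nqo1.

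Glutathione, the main small thiol of cells, is made from cysteine, glutamate and glycine, and 4 members serve its supply. Slc7a11 (ENSMUSG00000027737, chr3:49846975-50398063) is the light chain of the cystine-glutamate exchanger that brings in cystine. It stood at 53.9, 55.0, 50.3 and 50.7 CPM in Control, 56.4, 59.4, 58.3 and 63.5 in Model, and 56.1, 65.4, 55.7 and 55.7 in Treatment. By CPM every Model and every Treatment library was above every Control library, while Model and Treatment overlapped. Treatment replicate 2 was the highest of all 12. By FPKM Model also stood above Control, but Treatment replicate 4 at 6.19 lay below Control replicate 2 at 6.26. The log2 fold change was 0.18 ± 0.07 in Model against Control (SE; unadjusted p = 0.015, edgeR adjusted p = 0.197) and 0.15 ± 0.07 in Treatment against Control (edgeR adjusted p = 0.326). Treatment against Model gave −0.03 ± 0.07 (edgeR adjusted p = 0.869). None of these passed.

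Gclc (ENSMUSG00000032350, chr9:77661817-77701767) is the catalytic subunit of glutamate-cysteine ligase, the rate-limiting enzyme of glutathione synthesis. Control libraries held 52.4, 51.0, 51.8 and 53.8 CPM, Model libraries 53.4, 56.2, 51.9 and 56.7, and Treatment libraries 56.3, 57.6, 55.9 and 55.6. Treatment lay above Control in all 4 libraries, by a narrow margin, and Model overlapped both. Gclc was the most even member, and its difference of 0.11 ± 0.05 on the log2 scale in Treatment against Control did not pass (SE; unadjusted p = 0.0501, edgeR adjusted p = 0.361). Model against Control gave 0.06 ± 0.05 (edgeR adjusted p = 0.612) and Treatment against Model 0.05 ± 0.05 (edgeR adjusted p = 0.694).

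Gclm (ENSMUSG00000028124, chr3:122039206-122064381), the modifier subunit of the same ligase, read 59.8, 63.7, 64.2 and 63.1 CPM in Control, 64.2, 66.8, 67.0 and 70.4 in Model, and 65.7, 61.9, 57.5 and 61.1 in Treatment. Model lay above Control in all libraries only barely, since Control replicate 3 and Model replicate 1 round to the same value, and Treatment overlapped both. The log2 fold change was 0.10 ± 0.06 in Model against Control (SE; edgeR adjusted p = 0.424), −0.13 ± 0.06 in Treatment against Model (unadjusted p = 0.0403, edgeR adjusted p = 0.246) and −0.03 ± 0.06 in Treatment against Control (edgeR adjusted p = 0.891). The gene Gm17494 overlaps Gclm and held 12.1% as many counts. Whether the counting used the strand is not given in the sources used here, so reads of the pair cannot be told apart in their overlap.

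In FPKM, the other unit of the deposited table, Gclm looked different. Its Control libraries read 36.7, 36.8, 42.1 and 36.8 FPKM, its Model libraries 43.5, 43.3, 34.8 and 22.2, and its Treatment libraries 31.3, 29.6, 24.5 and 32.3. Here every Treatment library was below every Control library, as for 2.92% of all genes, and Model replicate 4, the highest of all by CPM, was the lowest. In limma on log2(FPKM + 0.1) the fold change was −0.13 ± 0.18 in Model against Control, the opposite sign to the counts, −0.25 ± 0.18 in Treatment against Model and −0.38 ± 0.18 in Treatment against Control (SE; limma adjusted p = 0.411 for the last).

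The units part at the gene length that the FPKM divides by. The length implied by the count, the FPKM and the library total was 1660, 1738, 1532 and 1717 bases in Control, 1477, 1542, 1886 and 3136 in Model, and 2093, 2112, 2344 and 1855 in Treatment. Treatment libraries carried longer lengths than Control libraries, and Model replicate 4 the longest. The longest was 2.12 times the shortest, against a median of 1.14 over the 13835 genes with a mean of at least 50 counts, and 2.07% of these genes had a larger ratio (1.04% of the 12242 genes with at least 100 counts). The ratio of the other 9 members was 1.02 to 1.22. Gclm has 7 transcripts of 292 to 5589 bases in GENCODE vM21. Whether the transcripts used differ between libraries was not tested.

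**Figure D3:**
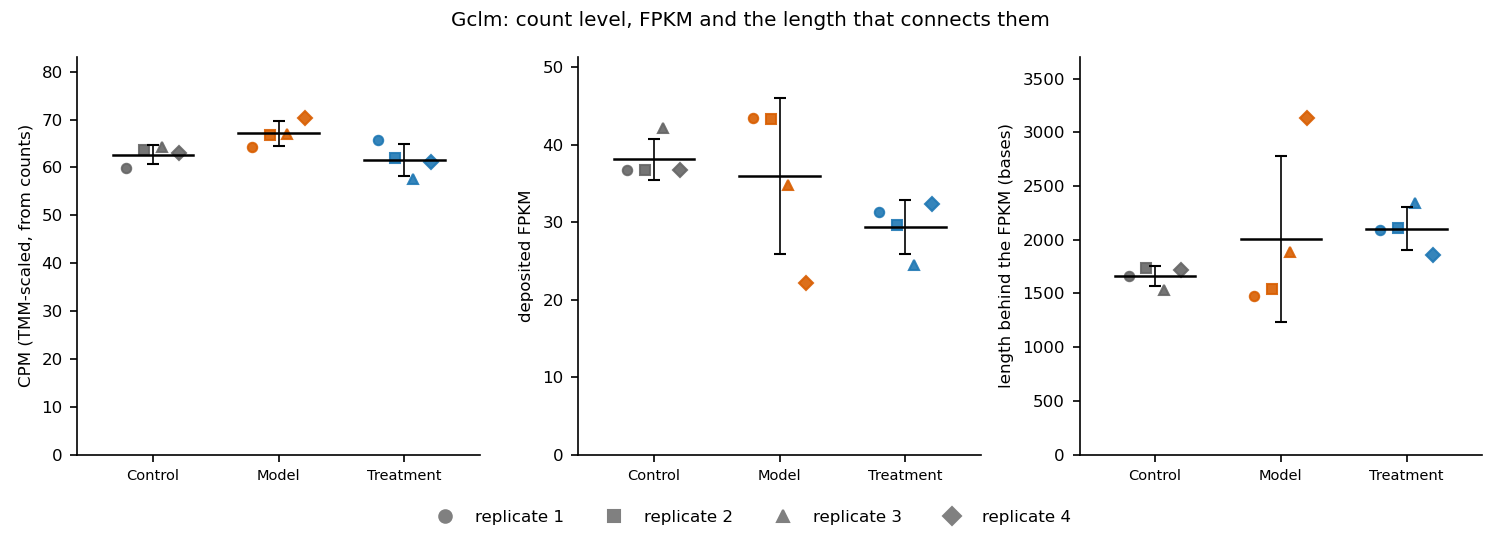
Gclm in CPM, in FPKM and as the length in bases implied by both, in every library by group, with mean (line) and SD (bar), n = 4 per group. Model replicate 4 is the highest library in CPM at 70.4 and the lowest in FPKM at 22.2, with an implied length of 3136 bases.

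Gsr (ENSMUSG00000031584, chr8:34142551-34164227), the reductase that returns oxidised glutathione to its reduced form, varied little between libraries. It read 20.1, 20.2, 19.3 and 19.9 CPM in Control, 19.6, 20.4, 21.4 and 18.0 in Model, and 19.7, 22.9, 20.2 and 19.2 in Treatment. All groups overlapped, with the lowest library in Model and the highest in Treatment. The log2 fold changes were 0.00 ± 0.08, 0.05 ± 0.08 and 0.04 ± 0.08 in the 3 comparisons in the order above (SE; edgeR adjusted p = 0.988, 0.808 and 0.867).

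The thioredoxin branch reduces protein disulfides and repairs oxidised peroxiredoxins. Txnrd1 (ENSMUSG00000020250, chr10:82669785-82733546), the cytosolic thioredoxin reductase, stood at 52.6, 46.6, 49.8 and 47.3 CPM in Control, 52.1, 53.0, 53.2 and 57.6 in Model, and 44.7, 46.1, 51.7 and 47.7 in Treatment. All Treatment libraries were below all Model libraries, while Control replicate 1 lay within the Model range and Control and Treatment overlapped. The mean was 54.0 ± 2.45 CPM in Model and 47.5 ± 3.03 in Treatment (SD, n = 4), a log2 fold change of −0.18 ± 0.06 (SE; unadjusted p = 0.0101, edgeR adjusted p = 0.13), which did not pass. The summed neuronal markers separated the same libraries in the same direction (7390 to 8630 CPM in Model, 6960 to 7340 in Treatment), and their part in this difference was not tested. Model against Control gave 0.14 ± 0.06 (unadjusted p = 0.0437, edgeR adjusted p = 0.301) and Treatment against Control −0.05 ± 0.06 (edgeR adjusted p = 0.807). Over the alternatives the adjusted p for Treatment against Model ran from 0.0652 to 0.337.

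Srxn1 (ENSMUSG00000032802, chr2:151947436-151951131), sulfiredoxin, reverses the overoxidation of peroxiredoxins and has 2 of the cores printed above. Its Control libraries were nearly equal at 65.0, 64.7, 64.4 and 65.2 CPM. Model libraries read 64.1, 73.5, 69.5 and 69.2 CPM and Treatment libraries 64.0, 65.5, 71.3 and 69.0. In both stressed groups 1 library fell below the Control range and the others above it, so the groups overlapped. The log2 fold changes were 0.09 ± 0.06, −0.03 ± 0.06 and 0.06 ± 0.06 in Model against Control, Treatment against Model and Treatment against Control (SE; edgeR adjusted p = 0.46, 0.805 and 0.707).

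Hmox1 (ENSMUSG00000005413, chr8:75820249-75827217), haem oxygenase 1, breaks down haem and is a classic stress-induced target. It was scarce, at 77 to 128 counts per library, and read 3.74, 3.87, 5.82 and 4.25 CPM in Control, 4.18, 4.46, 4.94 and 5.49 in Model, and 4.05, 4.21, 6.21 and 4.31 in Treatment. Replicate 3 of Control and of Treatment stood above the others of their group, and all groups overlapped. The log2 fold changes were 0.12 ± 0.18, −0.03 ± 0.18 and 0.09 ± 0.18 in the same order of comparisons (SE; edgeR adjusted p = 0.805, 0.964 and 0.874). The 95% intervals reached from −0.40 to 0.49.

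Nqo1 (ENSMUSG00000003849, chr8:108114857-108129838), a quinone reductase and the other classic target, had the largest differences from Control of the 10 genes, with lower mean levels in both stressed groups, and none passed. Control libraries read 5.39, 5.61, 5.06 and 3.72 CPM, Model libraries 4.09, 3.36, 3.08 and 3.39, and Treatment libraries 2.46, 4.61, 4.29 and 3.23, from 48 to 155 counts per library. Control replicates 1 to 3 were above all other libraries, and Control replicate 4 lay within the Model and Treatment ranges. The mean was 4.95 ± 0.847 CPM in Control, 3.48 ± 0.432 in Model and 3.65 ± 0.988 in Treatment (SD, n = 4). The log2 fold change was −0.50 ± 0.19 in Model against Control (SE; unadjusted p = 0.0196, edgeR adjusted p = 0.221), −0.44 ± 0.19 in Treatment against Control (unadjusted p = 0.0384, edgeR adjusted p = 0.332) and 0.07 ± 0.20 in Treatment against Model (edgeR adjusted p = 0.906).

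Choroid plexus RNA moved with Nqo1 between the groups. The summed level of the 12 choroid plexus markers was 1800, 2220, 2410 and 735 CPM in Control, 615, 669, 891 and 657 in Model, and 481, 1490, 1140 and 512 in Treatment. Most of the sum was Ttr, which read 1510, 1850, 2020 and 600 CPM in Control. Control replicate 4 was the lowest Control library for Nqo1 and for the sum, and Treatment replicates 2 and 3 were the highest Treatment libraries for both. Within Model the measures did not go together: replicate 1 was highest for Nqo1 and lowest for the markers. Other marker lists also went with Nqo1 between the groups. Red blood cell markers summed to 223 to 384 CPM in Control, 148 to 245 in Model and 192 to 253 in Treatment. Ependymal markers summed to 37.7 to 50.5, 33.5 to 49.9 and 19.3 to 41.3 CPM. In both lists Control replicate 4 and Treatment replicate 1 were the lowest of their groups, as for Nqo1. Model replicate 1 was the highest Model library for red blood cells but not for ependyma. The part of these lists was not tested. With a covariate for the choroid plexus score, the log2 fold change of Nqo1 was −0.07 ± 0.21 in Model against Control (SE; edgeR adjusted p = 0.953) and −0.06 ± 0.20 in Treatment against Control (edgeR adjusted p = 0.956). The score itself differed between the groups, at −0.35 to 1.27 in Control and −0.61 to −0.08 in Model. This fit therefore cannot tell group and choroid plexus RNA apart, and the cause of the Nqo1 difference was not tested. Without Control replicate 4 and without the covariate, Nqo1 was at −0.62 in Model against Control (edgeR adjusted p = 0.171). Treatment replicates 2 and 3 bear library names numbered apart from the rest, and without both, Treatment against Control gave −0.79 (edgeR adjusted p = 0.116) and Treatment against Model −0.28.

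**Figure D4:**
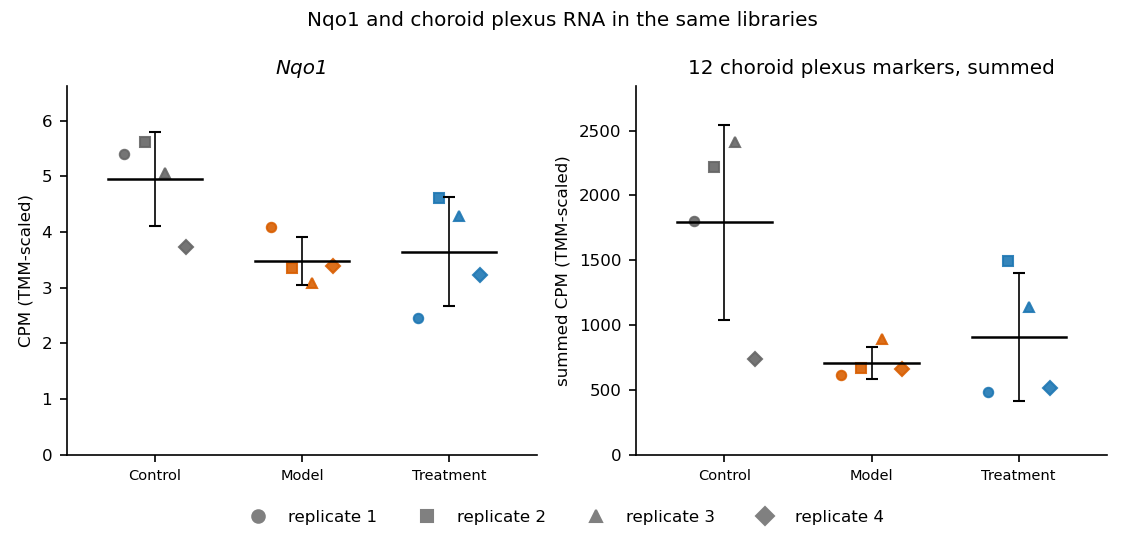
Nqo1 in CPM (left) and the summed CPM of 12 choroid plexus markers (right) in every library, with mean (line), SD (bar) and a symbol for each replicate number, n = 4 per group. Control replicates 1 to 3 are high in both panels and Control replicate 4 is low in both.

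Beyond the 10 members, 106 genes of the wider network were listed by role, of which 102 were tested. In edgeR 0 of 102 passed in each comparison, beside the 0.79%, 1.88% and 0.102% of all genes that did. At an unadjusted p under 0.05 there were 20, 15 and 18 of the 102, against 15.6%, 18.5% and 13.9% of all genes. DESeq2 called 3 in Model against Control (Cul3, Gsk3b and Ephx1), 2 in Treatment against Model (Slc3a2 and Sesn1) and 3 in Treatment against Control (Gstm5, Prdx1 and Tfrc), and limma-voom called 0 in each. The DESeq2 counts stand beside the 3.72%, 5.91% and 2.37% of all genes that it called. In Model against Control the median log2 fold change over the 102 genes was −0.05, with 26 positive and 76 negative. It was 0.02 in Treatment against Model (56 positive, 46 negative) and −0.01 in Treatment against Control (46 positive, 56 negative). Over all tested genes the 3 medians were −0.012, 0.002 and −0.008. The shares of all genes on each side of 0 were not counted.

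From each list the gene of smallest p is described, and none of them passed in edgeR. The counts at an unadjusted p under 0.05 given for each list stand beside 15.6%, 18.5% and 13.9% of all genes. Among 15 regulators of Nrf2, where 5, 2 and 1 had an unadjusted p under 0.05, it was Amer1, a scaffold of the beta-catenin destruction complex. Amer1 read 12.3, 13.6, 11.9 and 11.6 CPM in Control, 10.7, 11, 11 and 10 in Model and 10.3, 11, 9.34 and 9.18 in Treatment. Control was the highest group, above every stressed library, and Treatment against Control gave −0.32 ± 0.09 on the log2 scale (SE; edgeR adjusted p = 0.135).

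Among 28 tested genes of glutathione synthesis and use, with 2, 3 and 6 at an unadjusted p under 0.05, it was Slc3a2, the heavy chain that partners Slc7a11 in the cystine exchanger. Slc3a2 read 90.8, 96.1, 88.1 and 94.0 CPM in Control, 85.6, 81.3, 86.3 and 91.5 in Model, and 94.7, 98.3, 112 and 102 in Treatment. Every Treatment library exceeded every Model library, and the log2 fold change was 0.24 ± 0.06 (SE; edgeR adjusted p = 0.0573). Its partner Slc7a11 gave −0.03 ± 0.07 in that comparison, and the difference between both genes was not tested. Slc3a2 passed under 3 of 24 alternatives.

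Among 16 thioredoxins and peroxiredoxins, with 3, 3 and 2 at an unadjusted p under 0.05, it was Prdx1, a peroxiredoxin of the kind that Srxn1 repairs. Prdx1 read 113, 101, 113 and 99.3 CPM in Control, 84.6, 94.3, 100 and 99.1 in Model, and 82.2, 73.9, 90.6 and 82.9 in Treatment. All Treatment libraries were below all Control libraries, and the log2 fold change was −0.37 ± 0.07 (SE; edgeR adjusted p = 0.0714). It passed under 4 of 24 alternatives.

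For detoxification and export, where 21 genes were tested and 5, 3 and 6 had an unadjusted p under 0.05, it was Ephx1, the microsomal epoxide hydrolase. Ephx1 read 23.3, 26.2, 28.2 and 22.0 CPM in Control, 15.9, 16.3, 20.3 and 19.3 in Model, and 18.2, 22.0, 23.4 and 18.8 in Treatment. All Model libraries were below all Control libraries, a log2 fold change of −0.47 ± 0.11 (SE; edgeR adjusted p = 0.0537). With a covariate for the choroid plexus score it was −0.22 (edgeR adjusted p = 0.534). That score differed between the groups, so this fit cannot tell group and choroid plexus RNA apart. Ephx1 passed under 8 of 24 alternatives, the most of any listed gene.

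The smaller lists gave values of like size. Tfrc, the transferrin receptor, was the smallest p among 9 genes of haem and iron, at −0.29 ± 0.07 on the log2 scale in Treatment against Control (SE; edgeR adjusted p = 0.109). Pgls, an enzyme of the pentose phosphate pathway that yields NADPH, led 9 genes of NADPH supply, at −0.25 ± 0.08 in Model against Control (edgeR adjusted p = 0.155). Sod3, the extracellular superoxide dismutase, led 4 genes of superoxide and peroxide removal, at 0.37 ± 0.13 in Treatment against Model (edgeR adjusted p = 0.145). Without Treatment replicate 3 Sod3 was at 0.23 (edgeR adjusted p = 0.318), without both Treatment replicates 2 and 3 at 0.15 (edgeR adjusted p = 0.658), and without Treatment replicate 1 at 0.49, which passed (edgeR adjusted p = 0.0362).

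**Figure D5:**
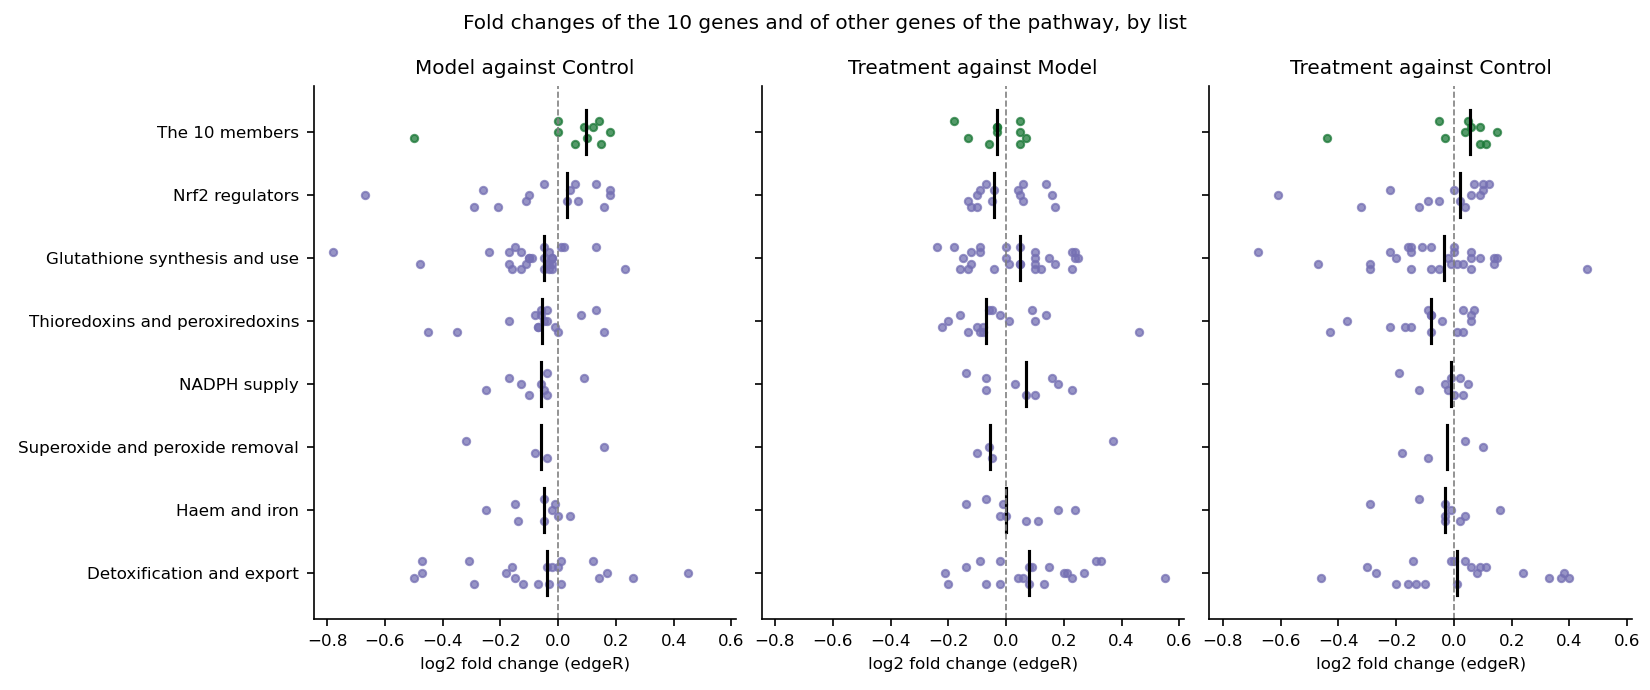
Log2 fold changes of the 102 tested genes of the wider network, by list, in the 3 comparisons, from edgeR. In Model against Control 76 of the genes lie below 0 and 26 above, and none passed the threshold in any comparison. The median over all tested genes in Model against Control was −0.012, and their signs were not counted.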

How the data were processed

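For every gene and library the authors deposited an estimated count, not scaled, and an FPKM value, which the authors scaled for gene length and library total. The submitters' processing notes name Salmon 1.10.1, STAR 2.7.10a, FastQC 0.12.1, cutadapt 3.4 and Trim Galore 0.6.7, with GRCm39 and mm39; the annotation, strand setting and filters are not given in the sources used here. Groups came from the sample labels. The estimated counts were rounded to whole numbers. In edgeR 4.0.16 (R 4.3.3), after filterByExpr and TMM scaling, the quasi-likelihood fit used all 12 libraries with 1 mean for each group. Calls were made at an adjusted p under 0.05, by Benjamini-Hochberg over 18600 genes. SE is the fold change divided by the root of its F statistic. DESeq2 1.42.0, and limma 3.58.1 on voom weights or on log2(FPKM + 0.1), were alternatives. Scores and correlations used log2 CPM with a prior count of 2. The model was tested on simulated data.

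The genes named are the 10 members, the gene of smallest p of each pathway list (none was called), marker genes called or at 0, and the 3 genes most correlated with Nfe2l2. These 3 were taken from tested genes outside the lists, without clone-like or identifier symbols. Genes that only DESeq2 or another alternative called are named outside this rule, after their values were seen. So are Camk2a and Ttr, which made up most of their marker sums. The minimum of 50 counts for implied lengths was set after seeing the data, in place of 100, so that all members entered. The members and lists were chosen with earlier results of these data known.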

Additional observations from a re-analysis of the deposited data

Results flagged for a closer look

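Of 63 groups of 4 libraries checked (CPM and implied length of each member, and the choroid plexus sum), 4 had a library whose gap to its nearest neighbour exceeded the 95% critical value of Dixon's test, and chance gives about 1 in 20. Hmox1 stood at 6.21 CPM in Treatment replicate 3, the highest of its group. Slc7a11 stood at 65.4 CPM in Treatment replicate 2, also the highest of its group. In Model replicate 3 the length implied by the count and FPKM was the lowest of the group for Slc7a11, at 8714 bases, and for Gsr, at 2122 bases.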

How the results depend on the processing

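The count of members called was 0 in each comparison under all 24 alternatives, including those that left out 1 library each and the fit with a replicate block. Same-numbered libraries showed little shared deviation (r −0.04 to 0.11 over 12 pairs, 1 of them over 0.1). Of 12 libraries, 4 correlated best with their own number. No pairing by number was seen, but so few libraries cannot exclude one. Pathway list genes called numbered 3, 2 and 3 in DESeq2 (Model against Control, Treatment against Model, Treatment against Control), 2 in Model against Control and 3 in Treatment against Control with no filter on low counts, 1 in each of the first 2 comparisons with at least 1 CPM in 8 libraries, 1 in Model against Control with only the 8 libraries compared, 1 in Model against Control and 1 in Treatment against Control with the replicate block (Ephx1, edgeR adjusted p = 0.0227, and Prdx1, 0.0349), and 1 in Model against Control with both Treatment replicates 2 and 3 left out. Leaving out 1 library at a time gave 0 to 1, 0 to 3 and 0 to 1: without Treatment replicate 1 Ephx1 passed in Model against Control and Gpx1, Slc3a2 and Sod3 in Treatment against Model, and without Treatment replicate 3 Ephx1 passed in Model against Control and Prdx1 in Treatment against Control. With no filter, Prkcd and Ephx1 passed in Model against Control, and Prkcd, Prdx1 and Tfrc in Treatment against Control. Prkcd had the smallest values there (edgeR adjusted p = 4.23e-13 and 5.25e-11). In the main fit it stood at 55.8 ± 35.1 CPM (SD) in Control and did not pass in Model against Control (edgeR adjusted p = 0.288). Over all genes, 147, 350 and 19 were called, with 3 to 783, 0 to 1099 and 0 to 748 over the alternatives. DESeq2 called 692, 1099 and 440. Of the member fold changes under the alternatives 672 kept their sign and 48 changed it, none of them past the threshold. In Model against Control, Keap1 was 0.01 with RLE scaling, in DESeq2 and with no filter, and 0.02 with the choroid plexus covariate; Gsr was 0.00, 0.00, 0.01 and 0.08. Without both Treatment replicates 2 and 3, Treatment against Model was −0.28 for Nqo1 and −0.03 for Gsr, and Treatment against Control was −0.07 for Hmox1, 0.02 for Gclm and −0.03 for Gsr. With FPKM (+ 0.1, + 1 or no filter) Gclm was −0.13 in Model against Control, Hmox1 0.01 in Treatment against Model and Gsr −0.09 in Treatment against Control. Leaving out 1 library at a time gave, in Model against Control, −0.03 to 0.05 for Keap1 and −0.04 to 0.04 for Gsr; in Treatment against Model, −0.10 to 0.00 for Nfe2l2, −0.19 to 0.05 for Hmox1, −0.06 to 0.21 for Nqo1, −0.09 to 0.00 for Slc7a11 and −0.01 to 0.09 for Gsr; and in Treatment against Control, −0.07 to 0.25 for Hmox1, −0.06 to 0.00 for Gclm and 0.00 to 0.08 for Gsr. The cause was not tested. Hmox1 and Nqo1 had the fewest counts of the members, 48 to 155 per library, and the largest variation between libraries (16.1% and 17.7%, edgeR's biological coefficient of variation); what depth alone contributes was not tested.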
